A study of Mus musculus with 15 samples.

Results

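The 5 mice killed after fear conditioning (FC) were compared with the 5 killed after memory retrieval (RT). These 10 hippocampal libraries, of 15 in the series, were chosen by their group labels, and the library numbers 3, 5, 6, 7 and 8 occur once in each group. All mice were C57BL/6J males of 2 months and wild type, kept singly and handled before the experiment. A single shock to the feet (1.5 mA, 2 seconds) closed the 2.5 minutes that an FC mouse spent in the chamber, and tissue was taken 30 minutes later. RT mice had the same training, spent 5 minutes in the chamber without shock 24 hours later, and were dissected 30 minutes after that test. The remaining 5 libraries came from mice that were handled but never trained (CC), and they enter here as a reference level and in the estimate of unwanted variation. Each library held polyA RNA of both hippocampi of 1 mouse, so the libraries of a group are separate animals, and all cell types of the dissected tissue were read together. RT mice differ from FC mice both in the test and in the day that passed since the shock, and these cannot be told apart.

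Contextual fear conditioning pairs a place with a shock, and storing that memory needs the hippocampus. Neurons active in a new experience transcribe immediate early genes within minutes. These code for transcription factors such as Fos and Egr2 and for synaptic effectors such as Arc, and many are switched on through CREB and serum response factor, which are already present in the cell. Returning an animal to the trained place recalls the memory and opens a second wave of transcription, called reconsolidation, in which much of the same early program is used. The comparison asks in which genes the hippocampus differed between these phases.

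Of 28657 genes with any read, 18008 exceeded 10 reads in at least 6 of the 15 libraries and entered the tests. FC libraries had 42051401 to 59093377 reads in genes and RT libraries 35731428 to 61275293. The markers listed for CA1, for CA3 and CA2 and for dentate gyrus, 43 genes, were all among the tested genes, and none of them was called in either model described below. Those models called 0.00555% and 0.122% of all tested genes, so having no call among 43 does not describe the subfields. FC3 and RT3 stood apart: the interquartile range of their relative log expression (the natural log of the normalized count over the gene's median) was 0.825 and 0.435, against 0.0796 to 0.117 in the other 8 libraries. Across 12922 protein-coding genes with a mean count of at least 100, the deviation of FC3 and RT3 from the gene's median fell with transcript length, with Spearman rank correlations of -0.652 and -0.731. No other pair had 2 libraries with a rank correlation under 0, but single libraries did. RT7 had -0.499, where FC7 had 0.265, and among the CC libraries CC6 had -0.437. Normalized counts below are read counts divided by upper-quartile factors, listed in the order of numbers 3, 5, 6, 7 and 8.

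Like-numbered FC and RT libraries resembled each other. The deviations of log2 normalized counts from the group mean correlated between the FC and the RT library of the same number with r of 0.870 for number 3, 0.392 for number 5, 0.568 for number 6, 0.254 for number 7 and 0.581 for number 8. The 20 correlations between different numbers had a median of 0.140 and a highest value of 0.512, that of FC7 with RT6. Of the 10 libraries, 8 were nearest to the library of their own number. Without number 3 the same-number values were 0.093 to 0.481 and the highest between different numbers was 0.141. Then 6 of 8 libraries were nearest to the library of their own number. These are descriptions across 18008 genes, which are not independent replicates, and all values of a library share its depth and base composition. The 2 libraries of a number may have shared a lane, since each lane held 1 library of each group, but the labels do not say which.

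**Figure D1:**
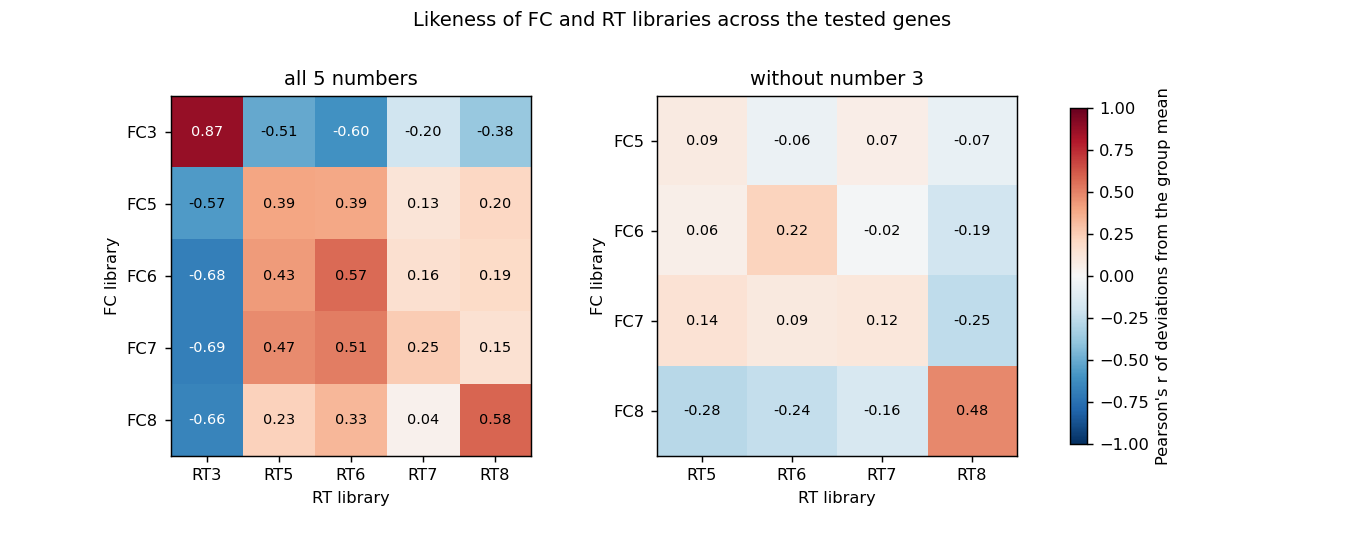
Pearson's r across 18008 genes between the deviations of each FC library (rows) and each RT library (columns) from its group mean, for all 5 numbers (left) and without number 3 (right). The diagonal holds the like-numbered pairs, from 0.254 to 0.870 on the left and from 0.093 to 0.481 on the right.

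Single genes show this likeness, and the following pair was chosen after its values were seen. AC125484.1 read 2375, 267, 311, 309 and 29.9 in FC and 1661, 842, 603, 406 and 24.1 in RT, and AC105256.2 read 279.7, 42.2, 53.6, 40.2 and 3.4 in FC and 186, 119.8, 98.3, 48.4 and 5.7 in RT. Both were highest in the number 3 libraries and lowest in the number 8 libraries of both groups. The CC libraries did not follow: CC8 had 394 normalized counts of AC125484.1, where FC8 and RT8 had 29.9 and 24.1.

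Few genes were called between FC and RT, and the lack of a call does not show that a gene did not differ. The model with library number as a block, fitted to the 10 libraries (the paired model), called 1 of 18008 genes at a false discovery rate (FDR) of 0.01 in edgeR's likelihood ratio test, with FC higher (0.00555% of the tested genes). It called none with RT higher (0%), and 393 genes had an unadjusted p under 0.05 in either direction. The study's model, with 5 factors of unwanted variation estimated by RUVs over all 15 libraries and no block, called 22 genes (0.122%), 14 with FC higher (0.0777%) and 8 with RT higher (0.0444%). None of the 22 was the gene called by the paired model. In the likelihood ratio test 1934 genes (10.7%) had an unadjusted p under 0.05 in the RUVs model. The paired model had 2.18%, and 14.3% when number 3 was left out. With the library number added to the RUVs model as a block, 91 genes were called, 51 with FC higher and 40 with RT higher, among them 21 of the 22. That model leaves fewer than the 7 residual degrees of freedom of the RUVs model and was run with the likelihood ratio test only. With TMM factors the RUVs model called 17 with FC higher and 4 with RT higher, which moves the share of calls with FC higher from 63.6% to 81.0%. In edgeR's quasi-likelihood test neither model called a gene (286 and 1811 genes at an unadjusted p under 0.05), and DESeq2 called 0 and 4. The calls of the RUVs model rested on library FC5 more than on any other: without it 3 genes were called, 1 of them among the 22.

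**Figure D2:**
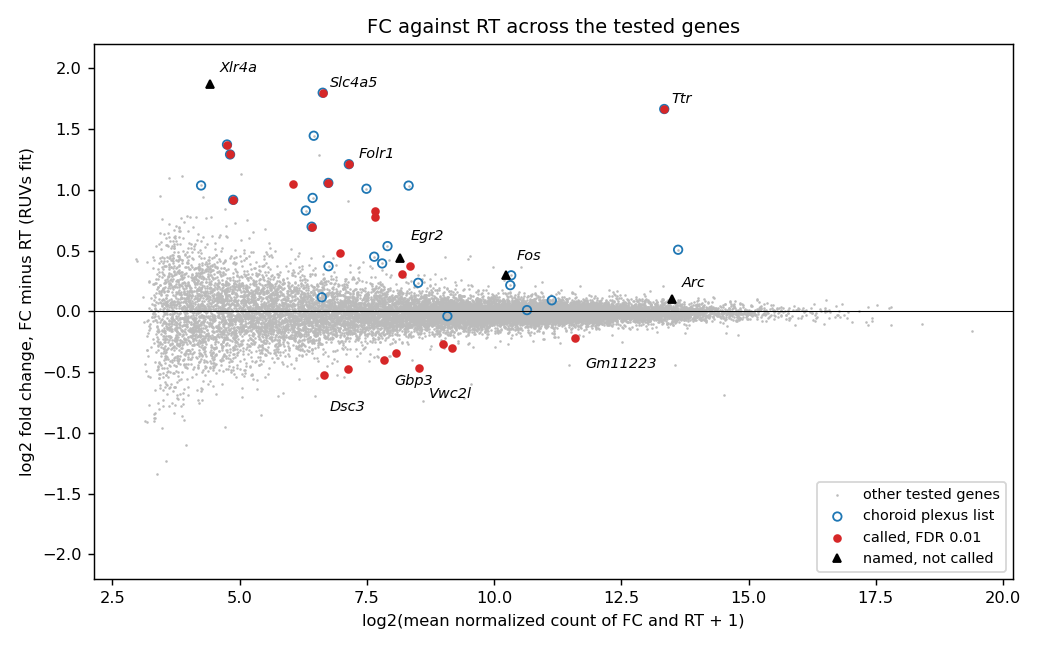
The log2 fold change of FC over RT in the RUVs model (vertical axis) against the log2 mean normalized count of the FC and RT libraries plus 1 (horizontal axis), for 18008 genes. The 22 called genes are filled red, members of the choroid plexus list are ringed, and triangles mark named genes that were not called. Of the 14 called genes above 0, 8 are ringed.

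Arc and Dusp1 were higher in every FC and RT library than in any CC library, and neither they nor any listed immediate early transcription factor was called between FC and RT. Arc (chr15:74499513-74503000, - strand, mm9), which codes for a synaptic protein that takes part in removing AMPA receptors, read 11974, 14248, 9647, 12495 and 11296 in FC and 11064, 12859, 10965, 10142 and 10927 in RT, against 3321 to 5081 in CC. FC and RT values overlapped. The fold change of FC over RT was log2 0.09 ± 0.10 (SE), adjusted p 0.9997 in the paired model and log2 0.10 ± 0.12 (SE), adjusted p 0.82 in the RUVs model, with FC higher in 4 of 5 pairs. Dusp1 (chr17:26642535-26645464, - strand), a phosphatase that shuts off MAP kinases, read 1128, 1458, 939, 1322 and 1319.7 in FC and 1252, 1357, 1299.8, 1213 and 1216 in RT, against 640.2 to 715 in CC. The RT values lay within the range of FC, and the RUVs fold change was log2 -0.02 ± 0.09 (SE), adjusted p 0.96.

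Fos (chr12:86814840-86818223, + strand), a subunit of the AP-1 transcription factor, read 1299, 1698, 1148, 1224 and 1319.7 in FC and 977, 1256, 1088, 999 and 1072 in RT. The FC library was the higher one in all 5 pairs, while the groups as a whole overlapped. The fold change was log2 0.30 ± 0.10 (SE), adjusted p 0.9997 in the paired model and log2 0.30 ± 0.11 (SE), adjusted p 0.22 in the RUVs model. Egr2 (chr10:66998223-67004936, + strand), a zinc finger transcription factor, read 296, 450.2, 276, 342 and 281 in FC and 192, 327, 252, 217 and 217 in RT. It too was higher in FC in all 5 pairs, with log2 0.45 ± 0.12 (SE), adjusted p 0.31 in the paired and log2 0.44 ± 0.15 (SE), adjusted p 0.18 in the RUVs model. In the 8 libraries without number 3 both passed the threshold, Fos with log2 0.28 ± 0.06 (SE), adjusted p 0.004 and Egr2 with log2 0.41 ± 0.08 (SE), adjusted p 6.8e-04. On these libraries neither passed in the quasi-likelihood test (adjusted p 0.179 for both) or in DESeq2 (0.0717 for Fos and 0.192 for Egr2), nor in the RUVs model without FC3 and RT3 (edgeR, adjusted p 0.354 and 0.306). Mean levels in CC were 265 (SD 53.4, n = 5) for Fos and 56 (SD 24.1, n = 5) for Egr2, so that the distance between FC and RT was small beside that of either from CC. Against CC, the RUVs log2 fold changes of Fos were 2.36 in FC and 2.06 in RT, and those of Egr2 were 2.67 and 2.23, with the CC libraries shared by both contrasts.

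The windows around the starts of these genes are shown because the comparison above turns on Fos and Egr2. They run from 250 bases before to 50 bases after a RefSeq start (GRCm38.p6), and capitals mark TGACG on either strand, the core of the element that CREB binds, and the CArG box of serum response factor. The Fos window is chr12:85473640-85473939 on the + strand. The Egr2 window, chr10:67537619-67537918 on the + strand, belongs to 1 of 5 listed starts and was chosen after its motifs were seen.
Fos: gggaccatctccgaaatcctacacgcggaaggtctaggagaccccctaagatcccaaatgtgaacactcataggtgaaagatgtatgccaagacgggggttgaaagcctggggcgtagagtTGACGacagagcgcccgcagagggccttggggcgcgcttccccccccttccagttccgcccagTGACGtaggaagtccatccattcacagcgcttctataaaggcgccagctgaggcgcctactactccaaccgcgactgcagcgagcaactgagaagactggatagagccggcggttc
Egr2: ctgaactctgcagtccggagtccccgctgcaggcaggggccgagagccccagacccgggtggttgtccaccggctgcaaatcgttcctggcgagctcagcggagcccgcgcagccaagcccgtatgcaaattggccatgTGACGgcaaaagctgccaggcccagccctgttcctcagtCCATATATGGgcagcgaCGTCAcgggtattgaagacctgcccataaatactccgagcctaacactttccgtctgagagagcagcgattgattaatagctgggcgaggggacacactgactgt
The Fos window held TGACG or its complement at 2 places and no CArG box, and the Egr2 window held 2 and 1. Sequence more than 250 bases before a start was not searched, so a motif missing from a window may lie outside it. The window of Dusp1, not printed, held 3 matches of TGACG or its complement, of which 2 overlap within TGACGTCA, and that of Fosb held 1. Of all 32851 such windows, 20.8% held TGACG and 1.63% a CArG box. A match is a description of these letters, not evidence of binding.

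**Figure D3:**
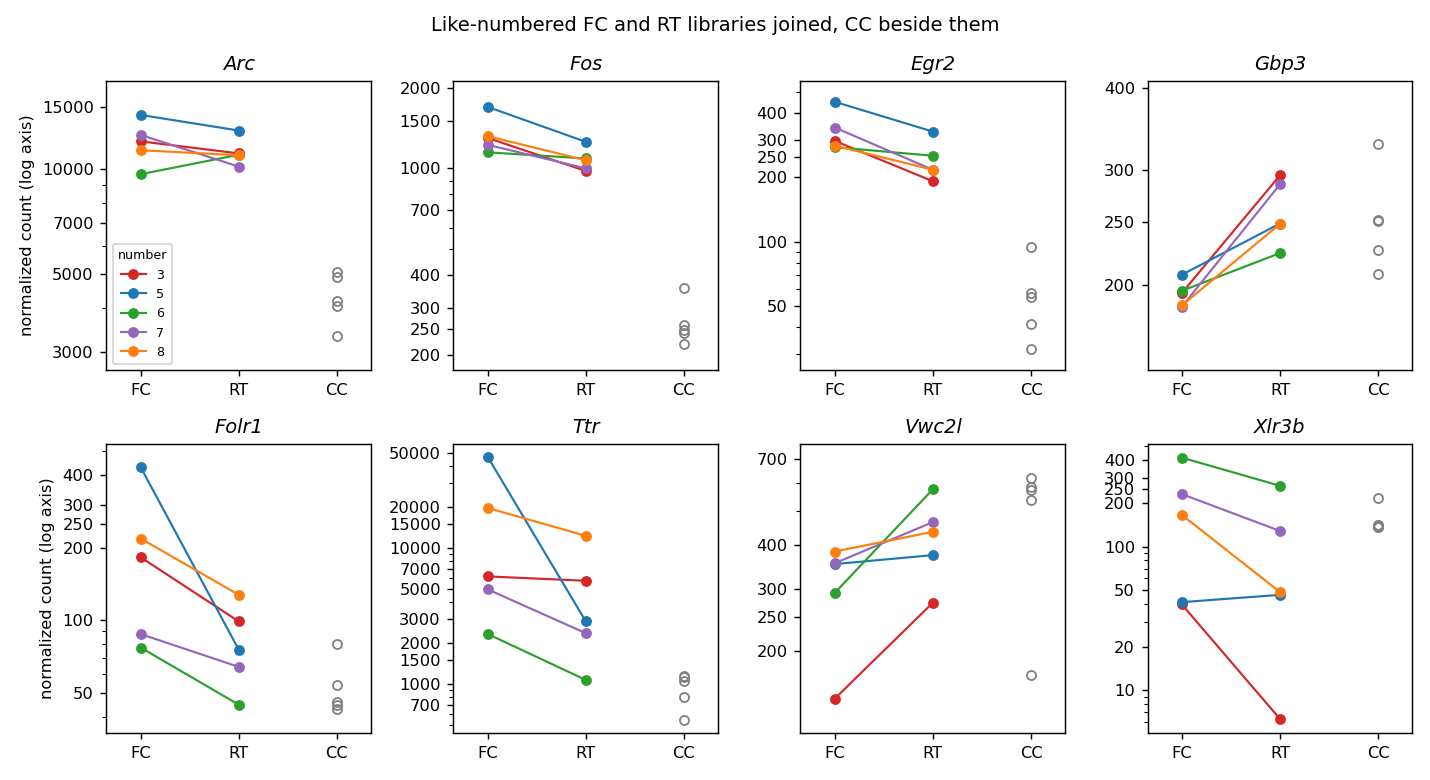
Normalized counts (log axes) of 8 genes in each library, with like-numbered FC and RT libraries joined by a line of 1 colour per number and the CC libraries as open circles. Every line of Fos, Egr2, Folr1 and Ttr falls from FC to RT, every line of Gbp3 and Vwc2l rises, and Arc and Xlr3b each have 1 line that goes the other way.

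Across the list of immediate early transcription factors, 27 of 28 genes were tested. None was called in either model, against 0.122% of all tested genes in the RUVs model, and the median RUVs log2 fold change was -0.01, the same to 2 decimals as the -0.01 of all tested genes. Fos, Fosb, Egr2, Nr4a1 and Nr4a3 were higher in FC in all 5 pairs, and Bhlhe40 was higher in RT in all 5. Over all tested genes, 1.62% were higher in FC and 2.88% higher in RT in all 5 pairs, and with TMM factors the order turned (411 genes with FC higher, 355 with RT higher). Nr4a3, an orphan nuclear receptor, read 4319, 5697, 5559, 5893 and 5890 in FC and 3984, 5539.5, 4919.6, 4741 and 5514 in RT and had the smallest p of the list, with log2 0.16 ± 0.05 (SE), adjusted p 0.09 in the RUVs model. Its RT mean of 4940 lay near the CC mean of 5015 (log2 0.03, adjusted p 0.91 in the RUVs model). Fosb, a relative of Fos, read 620.2, 793, 676, 757 and 669 in FC and 492, 718, 625, 530.4 and 601 in RT, with log2 0.26 ± 0.08 (SE), adjusted p 0.15. With the library number added to the RUVs model, Egr2 (adjusted p 1.4e-06), Fosb (2.2e-04) and Nr4a3 (0.0012) were called by edgeR and Fos (0.012) was not. Without the block none of them passed in the quasi-likelihood test or in DESeq2. Nr4a3 had the lowest adjusted p of them there (0.257 and 0.0769). Egr1 and Npas4, early genes named after their values were seen, had paired log2 fold changes of 0.07 and 0.0023.

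Genes of the choroid plexus were the largest group of calls. The choroid plexus is the epithelium that secretes cerebrospinal fluid into the ventricles, and it lies against the hippocampus without being part of it. Of 28 listed genes 26 were tested, and 8 were called with FC higher in the RUVs model, against 0.0777% of all tested genes. The median log2 fold change of the 26 was 0.53 in the paired and 0.76 in the RUVs model, against -0.01 in both for all tested genes, and 25 of 26 were above 0 in the RUVs model. The list was written with earlier results of these libraries known.

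The called members include carriers of ions, water, folate and thyroid hormone and a protein of tight junctions. Ttr (chr18:20823751-20832825), the carrier of thyroid hormone in cerebrospinal fluid, read 6174, 46548, 2332, 4958 and 19659.7 in FC and 5735, 2883, 1072, 2363 and 12255 in RT. FC5 and FC8 were the highest of all libraries and RT8 the third highest, and FC was higher in all 5 pairs. The fold change was log2 1.67 ± 0.34 (SE), adjusted p 0.002 in the RUVs and log2 1.29 ± 0.39 (SE), adjusted p 0.81 in the paired model. The pair differences of Ttr ran from log2 0.11 to 4.01 (SD 1.52). Folr1 (chr7:109006845-109019302), a folate receptor, read 182, 430.3, 77.2, 87.8 and 218 in FC and 99, 75.6, 44.8, 64.2 and 128 in RT. It was higher in FC in all 5 pairs, at log2 1.21 ± 0.23 (SE), adjusted p 6.5e-04 in the RUVs and log2 1.08 ± 0.23 (SE), adjusted p 0.032 in the paired model. Slc4a5, a bicarbonate transporter, read 24.3, 443, 30, 48.8 and 224 in FC and 28.8, 23.6, 8.8, 25 and 126 in RT and had log2 1.80 ± 0.37 (SE), adjusted p 0.002 in the RUVs model. The same libraries, FC5, FC8 and RT8, were its highest.

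Aqp1, a water channel, read 49.7, 399, 51.4, 47.6 and 192 in FC and 61.2, 47.1, 32.1, 46.7 and 135 in RT (log2 1.06 ± 0.23 (SE), adjusted p 0.0064 in the RUVs model). Cldn2, a protein of tight junctions, read 29.4, 256, 57.9, 56.1 and 129.9 in FC and 63, 51, 40.9, 47.5 and 112 in RT (log2 0.70 ± 0.14 (SE), adjusted p 0.0019). FC5, FC8 and RT8 were again the highest libraries for both. The other 3 called members had low counts. Wfdc2, a secreted protein with the fold of protease inhibitors, had the smallest p of the RUVs model and read 42.6, 78.6, 9.6, 18.3 and 34.2 in FC and 15.3, 11.8, 4.9, 11.7 and 32.6 in RT (log2 1.37 ± 0.22 (SE), adjusted p 1.5e-05). Kcnj13, a potassium channel, had log2 1.29 ± 0.23 (SE), adjusted p 1.5e-04, and Steap1 had log2 0.92 ± 0.20 (SE), adjusted p 0.0064. Among members that were not called, Kcne2 had log2 1.45 ± 0.35 (SE), adjusted p 0.018, Otx2, the transcription factor of this epithelium, had log2 0.93 ± 0.25 (SE), adjusted p 0.033, and Igfbp2 had log2 0.01 ± 0.06 (SE), adjusted p 0.97.

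The size of this group followed single libraries. The summed level of the 28 genes (CPM, reads scaled to a fixed library total) was 395.4, 1879, 411, 441.4 and 966.7 in FC and 467.5, 396.6, 347.3, 363 and 718.6 in RT, and 314.3 to 358.1 CPM in CC. FC5 and FC8 stood above all others, RT8 came next, and the remaining FC and RT libraries lay between 347.3 and 467.5. FC was the higher library in 4 of 5 pairs. Without FC5 the RUVs model called none of the 26, and over the 15 models that each left out 1 library the count was 0 to 19. No gene of the list was at 0 in all libraries. Whether FC tissue held more choroid plexus cells or more of these transcripts per cell cannot be told apart in bulk samples. Ependyma, the ciliated lining of the ventricles, had 14 of 14 listed genes above 0 in the RUVs model with a median of 0.17 and no call, and its summed level was 43.02 to 100.6 CPM in FC and 49.25 to 80.39 in RT.

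**Figure D4:**
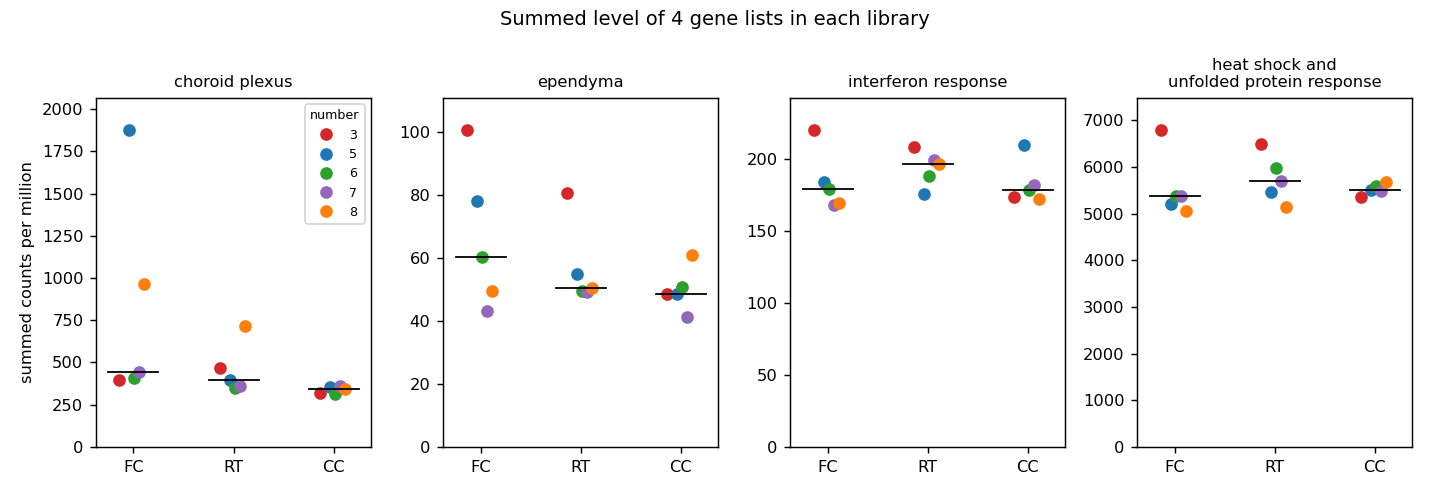
Summed CPM of the genes of 4 lists in each FC, RT and CC library, coloured by library number, with the group median as a bar. For the choroid plexus FC5 (1879), FC8 (966.7) and RT8 (718.6) stand above the other libraries, and for ependyma FC3 and RT3 are the highest.

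The other 6 genes called with FC higher were outside the list, which was written by hand, so they may still be expressed in that epithelium. Abca4 (chr3:121747361-121882979), a retinoid transporter, read 186, 528, 152, 162 and 265 in FC and 171, 132, 111, 114 and 183 in RT, with FC higher in all 5 pairs and log2 0.82 ± 0.15 (SE), adjusted p 2.0e-04 in the RUVs model. 1500015O10Rik (chr1:43787447-43799423) read 237, 521, 156, 112 and 263 in FC and 229.5, 125, 86.7, 114 and 176 in RT (log2 0.78 ± 0.15 (SE), adjusted p 6.5e-04). Krt18, a keratin of simple epithelia, read 128, 196, 36.4, 31.7 and 62.4 in FC and 70.2, 40.2, 26.3, 38.4 and 25.5 in RT (log2 1.05 ± 0.23 (SE), adjusted p 0.0069). Its partner Krt8 read 86.1, 95, 28.9, 24.4 and 42.7 in FC and 45, 36.3, 21.4, 30.9 and 29.8 in RT and was not called (log2 0.67 ± 0.17 (SE), adjusted p 0.024). FC5 had the highest count of each of these 4 genes, and FC8 the next highest of Abca4 and 1500015O10Rik. Without FC5 the adjusted p in the RUVs model was 0.0722 for Abca4, 0.315 for 1500015O10Rik and 0.303 for Krt18. Tuba1c, a tubulin, was higher in FC in all 5 pairs, with 166, 145, 98.6, 100 and 197 in FC and 129.6, 70.7, 70.1, 82.6 and 190 in RT (log2 0.48 ± 0.10 (SE), adjusted p 0.0018), and its groups overlapped. Lbp and Xpo4 were called too and are named because the count is small. Lbp was higher in FC in 2 of 5 pairs only, and Xpo4, a nuclear transport receptor, in all 5. FC5 was also the highest library for Lbp (601.5), and without it the adjusted p of Lbp was 0.499.

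The 8 genes called with RT higher had RUVs log2 fold changes from -0.52 for Dsc3 to -0.22 for Gm11223. Vwc2l (chr1:70772289-70931971), a secreted protein with a von Willebrand factor C domain, read 147, 353, 293, 355 and 383 in FC and 274, 374, 574, 464 and 435 in RT. RT was the higher library in all 5 pairs, and the fold change was log2 -0.47 ± 0.09 (SE), adjusted p 5.2e-04 in the RUVs and log2 -0.50 ± 0.15 (SE), adjusted p 0.81 in the paired model. Dsc3 (chr18:20119431-20160598), a cadherin of desmosomes, read 36.5, 82.1, 91.1, 93.9 and 109 in FC and 63, 104, 157, 118 and 150.3 in RT, again with RT higher in 5 of 5 pairs (log2 -0.52 ± 0.12 (SE), adjusted p 0.0075). Rxfp1 (chr3:79448638-79541716), the receptor of relaxin, read 17.2, 142, 128, 144 and 164 in FC and 51.3, 139, 225, 187 and 196 in RT (log2 -0.47 ± 0.11 (SE), adjusted p 0.0069). FC3 was the lowest FC library for all 3. These genes also varied within the untrained group: CC8 had 171 of Vwc2l, 29.3 of Dsc3 and 73.1 of Rxfp1, where the other CC libraries had at least 536, 153 and 180.1.

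Bach2 (chr4:32325779-32673083), a transcriptional repressor, read 243, 471, 524, 495 and 566 in FC and 417, 616, 575, 589 and 617 in RT, lower in FC in every pair (log2 -0.27 ± 0.06 (SE), adjusted p 0.0069 in the RUVs model). Slc38a5, a transporter of neutral amino acids, read 441, 267, 207, 159.8 and 169 in FC and 408, 294, 217, 282 and 238 in RT (log2 -0.34 ± 0.08 (SE), adjusted p 0.0069), and its number 3 libraries were the highest of both groups. Gm11223, annotated as a pseudogene, read 5295, 2362, 2287, 2460 and 2552 in FC and 4198, 3033, 2917, 3041 and 2646 in RT (log2 -0.22 ± 0.04 (SE), adjusted p 0.002). Reads that would also fit a near-identical copy are not in these values, since only uniquely mapped reads were counted. Tmem200a, called as well and named because the count is small, is the shorter of 2 overlapping annotated genes with this symbol, between which reads could have been split. It was higher in RT in 3 of 5 pairs, and FC3 had 36.5 of it where the other FC libraries had 641 to 698. Without FC3 its adjusted p rose to 0.828.

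Genes that missed the threshold with RT higher completed the named set. Adcy8 (chr15:64530604-64753858), an adenylyl cyclase that calcium stimulates, read 1159, 1192, 1001, 1187 and 1200 in FC and 1517, 1258, 1216, 1431 and 1226 in RT. The groups did not overlap, as for 0.172% of the tested genes with RT higher, and its RUVs fold change was log2 -0.18 ± 0.04 (SE), adjusted p 0.011. Gm5415 was lower in FC in all 5 pairs (log2 -0.37 ± 0.09 (SE), adjusted p 0.02), and so was Sec14l3, a lipid-binding protein (log2 -0.46 ± 0.13 (SE), adjusted p 0.069). Pisd-ps1 and Pisd-ps2, transcribed copies of the gene for phosphatidylserine decarboxylase, were lower in FC in all 5 pairs, at log2 -0.44 ± 0.13 (SE), adjusted p 0.81 and log2 -0.51 ± 0.16 (SE), adjusted p 0.94 in the paired model. Pisd-ps1 read 9038, 16927, 10843, 9228 and 6125 in FC and 13118, 20175, 11902, 11397 and 12067 in RT, with the number 5 library highest in both groups. Only uniquely mapped reads were counted, so reads that fit both copies are not in these values.

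The 1 gene called by the paired model was Xlr4a (chrX:70319684-70327817, mm9), of the X-linked lymphocyte regulated family, whose mean count of 32.1 in FC lies under the 50 required for naming, so it is named after its values were seen. It read 28.4, 2.3, 97.5, 19.5 and 12.8 in FC and 2.7, 5.9, 28.2, 4.2 and 1.4 in RT, with FC higher in 4 of 5 pairs, and 39.8, 39.7, 18, 23.6 and 2.3 in CC. The fold change was log2 1.92 ± 0.28 (SE), adjusted p 8.4e-08 in the paired model and log2 1.87 ± 0.44 (SE), adjusted p 0.013 in the RUVs model. The pair differences of Xlr4a ran from log2 -1.04 to 2.99 (SD 1.57). In the quasi-likelihood test of the paired model its adjusted p was 0.9995. Of 3 relatives on the same chromosome none was called in the paired or the RUVs model with all libraries. Without number 3 the paired model called Xlr3b (adjusted p 2.9e-05) and Xlr4b (0.0028), and the quasi-likelihood test called neither. The RUVs model with the block called both as well (2.8e-05 and 0.0044). Xlr3a was called in neither of these fits (0.30 and 0.15). Xlr3b (chrX:70437546-70448269) read 39.5, 41, 416, 232 and 166 in FC and 6.3, 46.1, 265, 128 and 48.2 in RT (log2 1.00 ± 0.23 (SE), adjusted p 0.05). Xlr4b read 10.1, 3.5, 15, 31.7 and 36.8 in FC and 6.3, 0, 15.6, 9.2 and 8.5 in RT (log2 1.22 ± 0.30 (SE), adjusted p 0.14). FC6 and RT6 were the highest libraries of their groups for Xlr3b. Xlr3a read 35.5, 14.1, 72.9, 104 and 41 in FC and 14.4, 25.5, 84.7, 45.9 and 9.9 in RT, with FC higher in 3 of 5 pairs (log2 0.64 ± 0.26 (SE), adjusted p 0.9997). FC and RT overlapped for all 4 genes.

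These genes are near copies of each other. The longest annotated transcripts of Xlr4a and Xlr4b were 98.9% identical over 1161 aligned bases, those of Xlr4a and Xlr3b 76.9% over 965. Only uniquely mapped reads were counted, so reads that fit more than 1 copy are not in these values. The windows around their RefSeq starts (GRCm38.p6, chrX:73082458-73082757 on the - strand for Xlr4a and chrX:73214083-73214382 on the + strand for Xlr4b) are shown with capitals at bases that differ or have no partner in the alignment, to show how little sequence separates 2 genes that the data list apart.
Xlr4a: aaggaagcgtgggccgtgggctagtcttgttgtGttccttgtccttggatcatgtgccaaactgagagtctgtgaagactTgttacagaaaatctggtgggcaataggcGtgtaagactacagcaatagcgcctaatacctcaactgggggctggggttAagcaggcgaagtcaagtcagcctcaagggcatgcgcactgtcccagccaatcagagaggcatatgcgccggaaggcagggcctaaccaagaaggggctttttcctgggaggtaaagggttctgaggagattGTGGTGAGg
Xlr4b: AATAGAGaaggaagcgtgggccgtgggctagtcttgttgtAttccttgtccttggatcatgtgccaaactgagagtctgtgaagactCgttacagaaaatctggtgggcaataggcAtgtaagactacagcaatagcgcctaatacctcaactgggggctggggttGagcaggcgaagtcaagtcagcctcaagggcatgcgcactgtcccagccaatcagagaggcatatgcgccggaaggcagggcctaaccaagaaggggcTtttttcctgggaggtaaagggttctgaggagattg
Over 292 aligned bases the windows differed at 4, and 8 bases of each had no partner.

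All 24 listed interferon response genes were tested. In the RUVs model 1 was called, with RT higher, against 0.0444% of all tested genes, and 23 of 24 were below 0 (22 in the paired model), with a median log2 fold change of -0.23 in the RUVs and -0.17 in the paired model. Interferon-stimulated genes are kept at a low tonic level in brain tissue, and Stat2, Irf7 and Irf9 take part in passing the signal to them. Gbp3 (chr3:142223016-142236173, + strand), a guanylate-binding protein, was the called member and read 195, 208, 196, 185 and 186 in FC and 294, 248, 224, 285 and 248 in RT. Every FC library lay below every RT library. Its fold change was log2 -0.40 ± 0.09 (SE), adjusted p 0.0036 in the RUVs and log2 -0.42 ± 0.12 (SE), adjusted p 0.7 in the paired model, and its CC values of 208, 328, 251, 252 and 226 spanned those of RT. Irf7 read 183, 83.2, 74, 86.6 and 92.3 in FC and 174, 101, 96.4, 168 and 143 in RT and had log2 -0.53 ± 0.13 (SE), adjusted p 0.023. FC3 was its highest library, and the other 4 pairs were all higher in RT. Stat2, with log2 -0.07 ± 0.04 (SE), adjusted p 0.47, was higher in RT in all 5 pairs without passing the threshold. The summed level of the list was 220.5, 184.2, 179.3, 168.2 and 169.8 CPM in FC and 208.6, 176, 188.5, 199.7 and 196.3 in RT, which overlap, and RT was higher in 3 of 5 pairs. The microglia list had no call in the RUVs model and a median of -0.06.

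The window of Gbp3 is shown as that of the called gene of the list, with capitals at GAAANNGAAA or its complement, the repeat that interferon regulatory factors recognise (GRCm38.p6, chr3:142559794-142560093, + strand, 1 of 2 listed starts and chosen after its motifs were seen).
Gbp3: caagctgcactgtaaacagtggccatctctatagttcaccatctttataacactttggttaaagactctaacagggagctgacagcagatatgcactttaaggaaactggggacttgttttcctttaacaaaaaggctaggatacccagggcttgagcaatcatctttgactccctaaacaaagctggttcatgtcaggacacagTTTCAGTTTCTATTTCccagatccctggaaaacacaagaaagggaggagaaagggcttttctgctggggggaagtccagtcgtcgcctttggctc
It held 2 overlapping matches, and 3.44% of the 32851 windows held at least 1. The window of Irf7 held none of these letters.

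Of 26 chaperones and genes of the unfolded protein response, all tested, none was called in either model, against 0.122% of all tested genes in the RUVs model. In the RUVs model 24 were below 0, with a median of -0.08, and in the paired model 18 were, with a median of -0.06, against medians of -0.01 for all tested genes, of which 10520 of 18008 were below 0 in the RUVs model. Hspb1, a small heat shock protein, read 422, 176, 126, 143 and 138 in FC and 295, 160, 216, 185 and 214 in RT and had log2 -0.36 ± 0.09 (SE), adjusted p 0.018. Manf, a secreted factor of the endoplasmic reticulum, read 2809, 1665, 1840.2, 1717 and 1661 in FC and 2479, 1794, 2289.9, 1961 and 2101 in RT (log2 -0.22 ± 0.06 (SE), adjusted p 0.059). For both, FC3 and RT3 were the highest libraries of their groups. Calr, Hspa5, Xbp1 and Hsf1 were higher in RT in all 5 pairs, and among them Calr, a calcium-binding chaperone, had log2 -0.18 ± 0.05 (SE), adjusted p 0.075. The summed level was 5065 to 6802 CPM in FC and 5144 to 6491 in RT.

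The remaining lists held no call in either model, except where a gene is named above, against 0.122% of all tested genes in the RUVs model. Activity-induced effectors (30 genes tested) had a median RUVs log2 fold change of 0.01. Their smallest p values were those of Ctgf, a matricellular protein (log2 -0.31 ± 0.10 (SE), adjusted p 0.16), and Vgf, a neuropeptide precursor (log2 -0.10 ± 0.04 (SE), adjusted p 0.2). Feedback genes of MAP kinases (16) had a median of -0.01, with Dusp14 at log2 -0.08 ± 0.05 (SE), adjusted p 0.53 and Spry4 at log2 -0.09 ± 0.06 (SE), adjusted p 0.61. CREB and cAMP signalling (24) had a median of -0.04, led by Adcy8 and by Crebbp, the acetyltransferase that CREB recruits (log2 -0.08 ± 0.04 (SE), adjusted p 0.41). Glucocorticoid response genes (23) had a median of -0.04, with Nfkbia, the inhibitor of NF-kB, at log2 -0.14 ± 0.05 (SE), adjusted p 0.12 and Klf9 at log2 -0.14 ± 0.05 (SE), adjusted p 0.27.

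Insulin, PI3K and FoxO signalling (26) had a median of 0.02. Sesn3, a stress-induced inhibitor of mTORC1 signalling, read 354, 673, 827, 750.1 and 651 in FC and 303, 701, 754, 525 and 518 in RT and had log2 0.22 ± 0.05 (SE), adjusted p 0.013, and Irs2, an adaptor of the insulin receptor, had log2 -0.19 ± 0.06 (SE), adjusted p 0.16. FC3 read 75 of Irs2 where the other FC libraries read 2023 to 2100.2. Potassium and sodium channels (32) had a median of 0.02, with Kcnj3 at log2 0.09 ± 0.03 (SE), adjusted p 0.22 and Kcnq3 at log2 0.16 ± 0.06 (SE), adjusted p 0.22. Endothelium and pericytes (30) had a median of -0.05, with Nos3 at log2 -0.20 ± 0.07 (SE), adjusted p 0.16 and the vasoconstrictor Edn1 at log2 -0.35 ± 0.13 (SE), adjusted p 0.21. Edn1 was 1 of the 31 genes (0.172% of the tested genes) whose RT libraries all lay above the FC libraries. In the other 27 lists, among them glutamate receptors, the circadian clock, histone acetylation, ribosomal proteins, glia and the hippocampal subfields, no gene was called in the RUVs model, and their medians ranged from -0.11 for meningeal fibroblasts to 0.17 for ependyma.

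**Figure D5:**
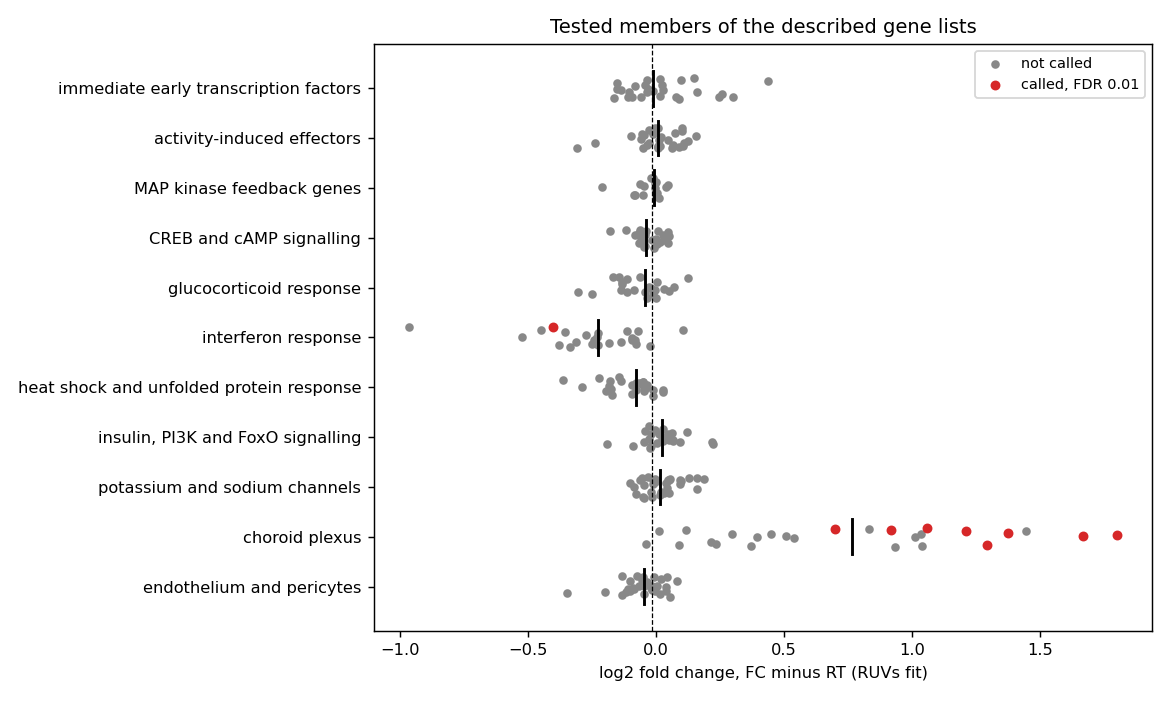
RUVs log2 fold changes of FC over RT (horizontal axis) of the tested members of 11 gene lists, 1 point per gene, red where called at an FDR of 0.01. Bars mark each list's median and the dashed line that of all tested genes, and the medians of the choroid plexus (0.76) and of the interferon response (-0.23) lie farthest from it.

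Counts without a model held more genes with RT higher than with FC higher. The FC and RT libraries did not overlap in 10 genes with FC higher (0.0555% of the tested genes) and 31 with RT higher (0.172%), among which Gbp3 was the only one called in the RUVs model. FC was higher in all 5 pairs in 292 genes (1.62%) and RT in 519 (2.88%). The split depended on the scaling: with TMM factors 17 genes did not overlap with FC higher and 22 with RT higher, and FC was higher in all 5 pairs in 411 genes and RT in 355.

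More genes were called when the number 3 pair was left out. The paired model on the remaining 8 libraries called 69 genes (0.383%), 38 with FC higher (0.211%) and 31 with RT higher (0.172%), and 9 of them were among the 22 of the RUVs model. The quasi-likelihood test called none of the 18008 on these libraries, with 2479 at an unadjusted p under 0.05, and DESeq2 called 15. The smallest adjusted p was that of Trpm3, a cation channel that is also in the choroid plexus list (log2 0.37, adjusted p 2.0e-09). The calls with FC higher included Arhgap5, a GTPase-activating protein (log2 0.28, adjusted p 1.6e-05), Slc4a4, a bicarbonate transporter of astrocytes (log2 0.23, adjusted p 0.0012), and Tfrc, the transferrin receptor (log2 0.22, adjusted p 0.0021). Vgf (log2 -0.17, adjusted p 4.6e-04), Irf7 (log2 -0.59, adjusted p 5.0e-04), Cryab (log2 -0.20, adjusted p 9.3e-04) and Manf (log2 -0.24, adjusted p 0.0033) were called with RT higher. With all libraries the paired fold change turned for Arhgap5 (log2 -0.22) and Slc4a4 (log2 -0.01), and the other genes named in this paragraph kept their direction. In the RUVs model Arhgap5 had log2 -0.01 and Slc4a4 log2 0.10, and neither was called. Genes of this paragraph that are not named elsewhere were chosen after their values were seen. Transcript length and base composition moved with the fold changes of the paired model without number 3. Across 12922 genes Spearman's rank correlation was 0.44 with length and -0.47 with GC content. The called genes had a median length of 3863 bases with FC higher and 2118 with RT higher, against 2955 for all tested genes. In the RUVs model with all 15 libraries the values were 0.21 and -0.18, and in the paired model with all 5 numbers they had the opposite signs, -0.21 and 0.13. The part of length and composition in the calls was not tested.

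The untrained group places the 22 calls of the RUVs model. For the 14 with FC higher, the CC mean lay below both FC and RT in 13 and above both in 1. For the 8 with RT higher, it lay above both in 4, between them in 3 and below both in 1. Over all tested genes it lay below both in 42.2%, between in 17.2% and above both in 40.6%. Against CC, Ttr had log2 fold changes of 3.50 in FC and 1.83 in RT (RUVs model), and Vwc2l of -0.46 and 0.01. In RT against CC, Ttr passed the threshold in the RUVs model (adjusted p 8.5e-05), and no other of the 14 did. Among those, Folr1 had log2 0.45 (adjusted p 0.49) and Tuba1c had log2 -0.10 (adjusted p 0.81). The contrasts with CC called 403 genes for FC (2.24%) and 182 for RT (1.01%), beside the 22 between FC and RT, and they share the CC libraries.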

How the data were processed

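Hippocampal polyA RNA of 15 mice was sequenced as paired-end reads, 1 library per mouse and 5 per group. Alignment was to mm9 with GSNAP, only unique and concordant pairs were retained, and the authors deposited unnormalized read counts per gene of Ensembl release 65, made with HTSeq 0.6.1. Whether strand was used in counting is not given in the sources used here, so overlapping and antisense genes may share reads. Symbols and mm9 positions came from the same annotation.

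Genes that passed the filter were tested in R 4.3.3 with edgeR 4.0.16, using upper-quartile factors, common and then tagwise dispersion, the likelihood ratio test and a Benjamini-Hochberg FDR of 0.01. The paired model held 10 libraries with library number as a block. The RUVs model held all 15, with 5 factors from the study's 625 negative control genes and no block. The SE is the fold change divided by the root of the likelihood ratio statistic. It rests on the dispersion of the model and is not a measure of the spread between pairs. The models were also run on simulated counts with the same dispersion for all genes. That setting is simpler than these data, so its outcome does not bear on single calls. The numbers were taken as pairs because every like-numbered correlation exceeded 0.1 with all 5 numbers, not because a label says so. This cut does not set pairs apart, as the correlations between different numbers had a median of 0.140. Without number 3 the correlation of FC5 with RT5 was 0.093, under the cut. FC3 and RT3 enter the group means from which the deviations of all other libraries were taken. The likeness was read from the same counts that the paired model used, so it is not a separate test of the pairing. No 2 libraries of a group differed by less than sampling noise.

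Named genes are Arc, Fos and Dusp1, per model and direction the 8 genes of smallest p with a mean count of at least 50 in FC or RT and that direction in 4 or more of 5 pairs, and per described list the 2 members of smallest p and any called one. The members and the gene lists were chosen with earlier results of these data known. DESeq2 1.42.0, quasi-likelihood tests, TMM factors, other filters, other factor numbers and left-out libraries were the alternatives. Promoter windows came from RefSeq tables.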

Additional observations from a re-analysis of the deposited data

Results flagged for a closer look

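Each named gene's 5 values per group were searched for 1 value far from the others by Dixon's test at 95%. Of 96 groups of values from 48 genes, 25 had such a value, where chance gives about 1 in 20. The library was FC3 in 13 and RT3 in 5 of them.

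FC3 was far below the other FC libraries for Rxfp1 (17.2 normalized counts), Sec14l3 (19.3), Nr4a3 (4318.8), Crebbp (493.5), Klf9 (1051.8) and Irs2 (74.99). It was far above them for Gm11223 (5294.6), Vgf (18299.6), Dusp14 (1977.0), Nfkbia (1425.7), Irf7 (183.4), Hspb1 (421.5) and Manf (2808.9). RT3 lay far below the other RT libraries for Bach2 (416.7), Crebbp (1204.2), Klf9 (4278.6) and Irs2 (615.6), and far above them for Gm11223 (4197.6). For Gm11223, Crebbp, Klf9 and Irs2 both number 3 libraries stood apart, in the same direction.

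RT8 was far above the other RT libraries for the choroid plexus genes Slc4a5 (126.2), Aqp1 (134.7) and Kcnj13 (29.8), and FC5 above the other FC libraries for Kcnj13 (117.2). RT5 was far above the others for Pisd-ps1 (20174.9) and Pisd-ps2 (5127.2). FC6 was far below the other FC libraries for Adcy8 (1001.0).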

How the results depend on the processing

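The number of calls depended on the model. For the paired model (1 gene), TMM factors gave 1 as well, leaving out 1 number gave 1 to 69 (69 without number 3), no filter on low counts gave 8 and 1 RUVs factor beside the replicate block gave 2. No replicate block (10 or 15 libraries), the quasi-likelihood test, DESeq2 and a filter of more than 10 reads in all 10 libraries gave 0, with 77, 122, 286, 95 and 255 genes at an unadjusted p under 0.05. Without number 3, an alternative chosen after seeing the data, the quasi-likelihood test gave 0 (2479 at an unadjusted p under 0.05) and DESeq2 15. For the RUVs model (22 genes), the replicate block gave 91, 3 factors gave 1, 1 factor 0 (1053 at an unadjusted p under 0.05), RUVs with all genes as controls 39, RUVg 2, the quasi-likelihood test 0 (1811), DESeq2 4, and leaving out FC3 and RT3 50. Leaving out 1 library gave 3 (without FC5) to 92 (without RT8). TMM factors gave 21 and no filter 31.

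The counts of genes without overlap (41) and with 1 direction in all 5 pairs (811) became 113 to 648 and 1434 to 3870 when a number was left out, since fewer libraries must then be apart, and were within 1.5 times of these with TMM factors, which turned the split of the paired count from 292 with FC and 519 with RT higher to 411 and 355. The lowest like-numbered correlation was 0.093 without number 3. Of 1078 fold changes of 27 named genes under the alternatives, 887 kept direction and call, 153 lost a call, 33 gained one, and 5 that were not called changed sign. No called fold change reversed. The paired model has 4 residual degrees of freedom, and the causes of these changes were not tested.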

Other observations

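Among the lists without a call, some had nearly all members on 1 side in the RUVs model, and fewer in the paired model. All 16 listed genes of dentate gyrus granule cells were above 0, with a median log2 fold change of 0.07, against 12 of 16 in the paired model (median 0.05). In the RUVs model 20 of 23 oligodendrocyte genes were below 0, with a median of -0.03, against 13 of 23 in the paired model (median -0.02). Of 41 nuclear genes of oxidative phosphorylation 35 were below 0 (median -0.03), but in the paired model their median was 0.03, so that the direction depends on the model. Over all tested genes 10520 of 18008 were below 0. These are counts, with no test, and members of a list are not independent.

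Of the 23 oligodendrocyte genes listed, 1, Olig2, was among the 31 genes (0.172% of the tested genes) whose RT libraries all lay above the FC libraries. Omg and Car2 were among the 31 without being listed, and all 3 are named here after their values were seen. Olig2, a transcription factor of that lineage, read 1562, 1428, 1556, 1562 and 1563 in FC and 1952, 1598, 1612, 1712 and 1754 in RT (log2 -0.17 ± 0.07 (SE), adjusted p 0.26 in the RUVs model). Omg, a myelin glycoprotein, read 4966, 5105, 5259, 5432 and 5510.5 in FC and 6448, 5550.3, 5618, 5695 and 5975 in RT (log2 -0.14 ± 0.04 (SE), adjusted p 0.088). Car2, a carbonic anhydrase, read 8348, 9198, 8912, 8506 and 8969 in FC and 11312, 9341, 9292, 9422 and 10394 in RT (log2 -0.17 ± 0.05 (SE), adjusted p 0.065). None passed the threshold. The summed level of the oligodendrocyte list was 8788, 6131, 6668, 5563 and 6003 CPM in FC and 8189, 6335, 6114, 5981 and 6663 in RT, with the number 3 libraries highest and RT higher in 3 of 5 pairs.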
